A study of Mus musculus with 7 samples.

Results

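The genes described here encode the proteins that dock, prime and fuse synaptic vesicles. They are 9 genes chosen by name. The neuronal forms are Snap25, Stx1a, Vamp2, Syt1, Syn1 and Syp. The paralogs Snap23, Stx4a and Vamp3 are called non-neuronal here because they are not specific to neurons. The deposited table has 50354 gene names, of which 50226 have a locus that the authors' software did not mark as failed. All 9 were among these, and all 9 belong to the 19122 names that reached 1 FPKM in any tissue. FPKM is the number of sequenced fragments scaled to transcript length and to library size, so levels of different genes can be set side by side. Total RNA depleted of ribosomal RNA was sequenced from 7 tissues of wild-type mice that were 36 weeks old and on the diet labelled NCD, of the strain labelled C57BL/6 and named C57BL/6N in the study's text. The tissues were cortex, liver, kidney, skeletal muscle, interscapular brown adipose tissue (BAT), visceral adipose tissue (VAT) and subcutaneous adipose tissue (SCAT). Each tissue is 1 library, so no difference has a replicate check, no test was made, and the order of tissues with close values has no measured error. Fragment counts are not part of the table, and the depth behind an FPKM is unknown.

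Membrane fusion in every cell is driven by SNARE proteins, which zip together across a vesicle and its target membrane. At the synapse the vesicle contributes synaptobrevin (Vamp2), the plasma membrane contributes syntaxin-1A (Stx1a) and SNAP-25 (Snap25), and synaptotagmin-1 (Syt1) couples fusion to calcium. Synaptophysin (Syp) is an abundant membrane protein of synaptic vesicles, and synapsin-1 (Syn1) holds the vesicles in a reserve pool. In fat and muscle, SNAP-23, syntaxin-4 and VAMP proteins take part in the delivery of the glucose transporter GLUT4 to the cell surface in response to insulin.

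The labels of the libraries were checked against marker genes. Of 7 neuronal markers, 6 were analysed, and their summed level was 742 FPKM in cortex and between 1.13 FPKM (liver) and 34.3 FPKM (muscle) elsewhere. The muscle sum came mostly from Camk2a, with 32.7 FPKM there, while the neurofilament gene Nefl had 254 FPKM in cortex and at most 0.389 FPKM outside it. Markers of other tissues were high in the SCAT and VAT libraries: lymphocyte markers summed to 107 FPKM and pancreatic acinar markers to 101 FPKM in SCAT, and epididymal markers to 2639 FPKM and liver markers to 306 FPKM in VAT. In BAT, the 3 skeletal muscle markers analysed summed to 282 FPKM, with the creatine kinase gene Ckm at 166 FPKM and the myosin gene Myh4 at 87.5 FPKM. Markers of Schwann cells and nerve summed to 40.9 FPKM in BAT, of which S100b gave 23.3 FPKM, to 23.3 FPKM in muscle, to 11.7 FPKM in SCAT and to 10.5 FPKM in VAT. In bulk tissue, fewer cells of a type and less RNA per cell cannot be told apart.

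Promoters from RefSeq on GRCm38.p6, which reach from 250 bases before to 50 bases after a transcription start, were available for 6 of the 9 members, with 7 promoters in all because Syt1 has 2. They were searched on both strands for TTCAGCACC and GGACAGCG, parts of the RE1 element bound by the repressor REST in non-neuronal cells, for the cyclic AMP response element TGACGTCA, for the GC box GGGCGG and for TATAAA. The promoters printed are those of Syn1, whose promoter holds TTCAGCACC and TGACGTCA, and the syntaxin paralogs Stx1a and Stx4a, which differ in their tissue pattern and both hold GC boxes. Capitals mark the motifs, and every sequence runs 5′ to 3′ on the strand of its gene. The Stx4a promoter lies inside the gene as GENCODE M21 annotates it, which starts further upstream.
Syn1 (chrX:20920869-20921168, minus strand): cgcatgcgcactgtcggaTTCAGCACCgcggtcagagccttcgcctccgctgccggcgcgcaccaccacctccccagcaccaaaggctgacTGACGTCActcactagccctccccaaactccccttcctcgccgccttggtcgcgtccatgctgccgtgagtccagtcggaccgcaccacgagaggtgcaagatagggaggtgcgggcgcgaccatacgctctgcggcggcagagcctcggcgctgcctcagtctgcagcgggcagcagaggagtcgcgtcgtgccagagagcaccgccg
Stx1a (chr5:135023232-135023531, plus strand): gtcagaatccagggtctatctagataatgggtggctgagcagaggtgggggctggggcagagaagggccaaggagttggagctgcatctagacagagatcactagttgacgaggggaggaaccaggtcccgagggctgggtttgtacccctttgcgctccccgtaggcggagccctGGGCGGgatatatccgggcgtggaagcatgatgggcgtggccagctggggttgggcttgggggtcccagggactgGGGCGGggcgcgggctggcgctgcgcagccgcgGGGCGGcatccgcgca
Stx4a (chr7:127841558-127841857, plus strand): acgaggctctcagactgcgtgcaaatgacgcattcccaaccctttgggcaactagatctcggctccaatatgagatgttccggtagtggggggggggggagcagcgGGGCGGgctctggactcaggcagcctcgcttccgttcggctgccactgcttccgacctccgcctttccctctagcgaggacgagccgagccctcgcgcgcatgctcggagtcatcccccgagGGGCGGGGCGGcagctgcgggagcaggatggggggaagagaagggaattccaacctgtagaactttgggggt
The TTCAGCACC of Syn1 begins at position -232 and the TGACGTCA at position -159 from the transcription start. Of all 32851 promoters in the table, 0.371% hold TTCAGCACC and 1.79% hold TGACGTCA. The GC box was found in 4 of the 7 member promoters, those of Stx1a, Stx4a and Syp and 1 of Syt1, and in 35.7% of all promoters. No member promoter held GGACAGCG or TATAAA, which are present in 1.26% and 13.6% of all promoters. These matches describe the letters of these windows and show no binding.

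Enrichment in a tissue required 1 FPKM or more in it and a log2(FPKM + 0.1) that exceeded every remaining tissue by 2 or more, which is 4-fold. By this rule 5 of the 9 members were enriched in cortex, where 8.32% of the 19122 names were. These were Snap25, Syp, Syt1, Stx1a and Vamp2, so that 5 of the 6 neuronal forms and 0 of the 3 non-neuronal paralogs met the rule, and Syn1 did not. All 6 neuronal forms had their highest level in cortex, as 20.7% of the names did. The median log2 ratio of cortex over the highest other tissue was 2.62 for the 9 members and -1.43 over all 19122 names.

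No member was enriched in a tissue other than cortex, which 3.82% of the names were in liver, 2.55% in kidney, 3.63% in muscle, 0.779% in BAT, 1.24% in VAT and 2.67% in SCAT. Taken tissue by tissue, the same 5 members were at least 4-fold higher in cortex than in each of the 6 others. The background for this was 17.8% of the names against liver, 14.4% against kidney, 14.7% against muscle, 15.2% against BAT, 14.6% against VAT and 17.2% against SCAT. Over all 7 tissues, 2 of the 9 members (Stx4a and Syn1) had a log2 range under 2, as 29.2% of the names did. Without cortex, 5 of the 9 did (Snap25, Vamp2, Syn1, Stx4a and Snap23), beside 41.2% of the names. Snap25 lay below the added 0.1 FPKM in all 6 of those tissues, so that its range there is set by that constant and says nothing of evenness.

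**Figure D1:**
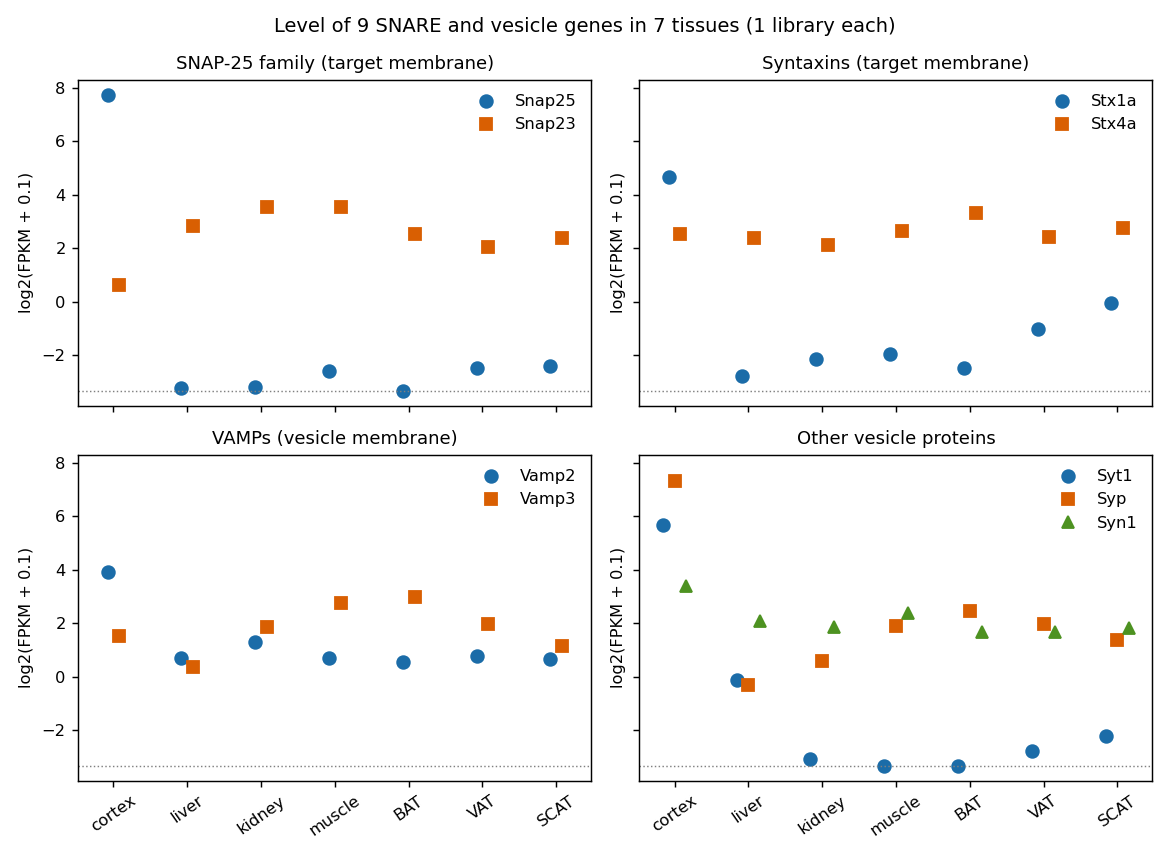
Level of each member, as log2(FPKM + 0.1), in the 7 tissues, with 1 point for each library; the dotted line is an FPKM of 0. Snap25, Stx1a, Vamp2, Syt1, Syp and Syn1 are highest in cortex, Syn1 by a log2 ratio of 1.02 only, and Snap23 is lowest there.

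Snap25 encodes the target-membrane SNARE that contributes a pair of helices to the synaptic fusion complex (GRCm38 chromosome 2, 136713453 to 136782428, plus strand). Its level was 215 FPKM in cortex, 0.0907 FPKM in SCAT, 0.0796 FPKM in VAT, 0.0680 FPKM in muscle, 0.0119 FPKM in kidney and 0.00771 FPKM in liver, and it was listed at 0 in BAT. Cortex stood far above the others, which all lay under 0.1 FPKM. The log2 ratio of cortex over SCAT was 10.14, and 3 of the 19122 names had a larger one for cortex. This ratio depends on the added constant: it was 7.63 with 1 FPKM added and 11.06 with 0.01 FPKM added. In cortex, 80 names had a higher FPKM than Snap25.

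Stx1a encodes syntaxin-1A, the neuronal syntaxin of the plasma membrane (chromosome 5, 135023482 to 135051100, plus strand). Its level was 25.3 FPKM in cortex, 0.878 FPKM in SCAT, 0.397 FPKM in VAT, 0.161 FPKM in muscle, 0.128 FPKM in kidney, 0.0824 FPKM in BAT and 0.0484 FPKM in liver. No tissue outside cortex reached 1 FPKM, and the white adipose libraries led the rest. The log2 ratio of cortex over SCAT was 4.70, and without the VAT and SCAT libraries the ratio over the highest remaining tissue, muscle, was 6.605. Markers of endocrine and islet cells, which also use syntaxin-1A, summed to 0.175 FPKM in SCAT and 0.123 FPKM in VAT, with the insulin gene Ins2 at 0.00879 FPKM in SCAT and listed at 0 in VAT. The part of the lymphocyte, acinar and epididymal transcripts of these libraries in the Stx1a values was not tested.

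Vamp2 encodes the vesicle SNARE synaptobrevin-2, which also occurs on GLUT4 vesicles (chromosome 11, 69088490 to 69092384, plus strand). Its level was 14.9 FPKM in cortex, 2.35 FPKM in kidney, 1.62 FPKM in VAT, 1.55 FPKM in muscle, 1.52 FPKM in liver, 1.49 FPKM in SCAT and 1.36 FPKM in BAT. At this locus it was above 1 FPKM in all 7 tissues, and the tissues outside cortex lay within a log2 range of 0.74. The log2 ratio of cortex over kidney was 2.62. The locus behind these values is antisense to the annotated gene, as read from the order of loci in the table. The locus on the annotated strand had lower levels, 5.18 FPKM in cortex, 0.887 FPKM in kidney and between 0.433 FPKM (SCAT) and 0.832 FPKM (muscle) in the other 5 tissues. On that strand Vamp2 was under 1 FPKM in all 6 tissues outside cortex, as Snap25 and Stx1a were. Cortex was the highest tissue and kidney the next on either strand.

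Syt1 encodes synaptotagmin-1, the calcium sensor of fast transmitter release (chromosome 10, 108497650 to 109010982, minus strand). Its level was 51.5 FPKM in cortex, 0.812 FPKM in liver, 0.119 FPKM in SCAT, 0.0465 FPKM in VAT and 0.0186 FPKM in kidney, and it was listed at 0 in muscle and BAT. Liver was the highest tissue outside cortex, and the log2 ratio of cortex over liver was 5.82. In the liver library the neuronal markers Nefl and Gad1 were listed at 0, the neuronal splicing factor gene Rbfox3 had 0.0628 FPKM, Camk2a 0.0190 FPKM and Nefm 0.0183 FPKM. Map2, a dendritic microtubule protein gene, had 1.03 FPKM there, which made up most of the liver sum of neuronal markers, against 228 FPKM in cortex. The table lists 3 further loci under this name on the other strand. They had 8.74, 2.32 and 4.10 FPKM in cortex and 0.245, 0.147 and 0.00755 FPKM in liver.

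Syp encodes synaptophysin (chromosome X, 7638471 to 7653256, plus strand). Its level was 158 FPKM in cortex, 5.48 FPKM in BAT, 3.85 FPKM in VAT, 3.61 FPKM in muscle, 2.47 FPKM in SCAT, 1.42 FPKM in kidney and 0.714 FPKM in liver. Outside cortex it was thus above 1 FPKM in 5 of the 6 tissues, with the highest levels in fat and muscle. The log2 ratio of cortex over BAT was 4.83, and VAT took the place of BAT with upper quartile scaling. The locus also carries the name of its same-strand neighbour Prickle3, a gene of planar cell polarity, so the values cannot be assigned to either gene alone. The part of the nerve and muscle transcripts of the BAT library in the Syp value was not tested.

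Syn1 encodes synapsin-1 and was the neuronal form with the flattest pattern (chromosome X, 20860511 to 20921004, minus strand). Its level was 10.5 FPKM in cortex, 5.09 FPKM in muscle, 4.13 FPKM in liver, 3.52 FPKM in kidney, 3.47 FPKM in SCAT, 3.09 FPKM in VAT and 3.07 FPKM in BAT. Cortex was highest, but the log2 ratio over muscle was 1.02, short of the 4-fold rule (SCAT was next after cortex once libraries were rescaled), and the tissues outside cortex lay within a log2 range of 0.71. Over all 7 tissues the log2 range was 1.74, and 22.7% of the 19122 names had a smaller range. Annotated genes overlap Syn1 on the other strand: Timp1 lies inside it from 20870166 to 20874735, and Araf, a kinase gene, overlaps its end by 9 bases. Araf had 53.9 FPKM in cortex, 57.4 FPKM in muscle, between 20.1 and 23.7 FPKM in kidney, liver and BAT, 11.7 FPKM in VAT and 9.82 FPKM in SCAT. The part of these overlapping genes in the Syn1 values was not tested.

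The non-neuronal paralogs were present in all 7 tissues. Snap23 (chromosome 2, 120567671 to 120601255, plus strand) encodes the widely expressed relative of SNAP-25. Its level was 11.7 FPKM in muscle, 11.6 FPKM in kidney, 7.13 FPKM in liver, 5.72 FPKM in BAT, 5.21 FPKM in SCAT, 4.06 FPKM in VAT and 1.43 FPKM in cortex. Cortex was lowest, as it was for 25.9% of the names, and lay 1.44 below VAT, the next lowest tissue, on the log2 scale. Muscle and kidney differed by a log2 of 0.01, and their order turned when the libraries were rescaled by median ratio or upper quartile. Snap23 was more than 4-fold lower in cortex than in liver (log2 difference -2.24), kidney (-2.93) and muscle (-2.95), as 16.7%, 14.8% and 16.4% of the names were, and by less than that against BAT (-1.92), SCAT (-1.79) and VAT (-1.44), where 15.2%, 12.3% and 14.3% of the names were that much lower.

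Vamp3 encodes cellubrevin, a vesicle SNARE of recycling endosomes (chromosome 4, 151047300 to 151057963, minus strand). Its level was 7.81 FPKM in BAT, 6.77 FPKM in muscle, 3.88 FPKM in VAT, 3.51 FPKM in kidney, 2.79 FPKM in cortex, 2.12 FPKM in SCAT and 1.21 FPKM in liver. BAT and muscle were highest and liver lowest, with a log2 range of 2.597, and cortex lay in the lower part of the order. VAT came before muscle with upper quartile scaling. The BAT library also held muscle transcripts (282 FPKM of markers), whose part in its Vamp3 value was not tested. The gene lies inside Camta1 on the same strand. Camta1, a transcription activator gene, had 16.4 FPKM in cortex and 24.0 FPKM in muscle, and its part in the Vamp3 values was not tested. For comparison, Slc2a4, the gene of GLUT4, had 187 FPKM in muscle, 54.2 FPKM in BAT, 6.602 FPKM in VAT, 4.69 FPKM in SCAT and 0.233 FPKM in cortex.

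Stx4a encodes syntaxin-4, the plasma membrane syntaxin of fat and muscle cells (chromosome 7, 127824294 to 127849019, plus strand). Its level was 10.02 FPKM in BAT, 6.74 FPKM in SCAT, 6.21 FPKM in muscle, 5.65 FPKM in cortex, 5.33 FPKM in VAT, 5.09 FPKM in liver and 4.31 FPKM in kidney. It was the most even of the 9 genes, with a log2 range of 1.20, and 9.63% of the 19122 names had a smaller range. BAT was highest as deposited and with median ratio scaling, and SCAT was highest with upper quartile scaling. The part of the muscle and nerve transcripts of the BAT library in its Stx4a value was not tested.

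Within each paralog pair, the neuronal form was set beside its relative in the same library, a share that does not depend on scaling between libraries. Snap25 made up 99.3% of the summed FPKM of Snap25 and Snap23 in cortex, 1.92% in VAT, 1.71% in SCAT, 0.575% in muscle, 0.108% in liver and 0.102% in kidney, and was listed at 0 in BAT. Stx1a made up 81.8% of the summed FPKM of Stx1a and Stx4a in cortex, 11.5% in SCAT, 6.93% in VAT, 2.89% in kidney, 2.53% in muscle, 0.942% in liver and 0.816% in BAT. With the loci of both strands summed, all 6 Stx1a shares outside cortex were over 1.5 times as large, at 20.3% in SCAT, 14.7% in VAT, 8.67% in kidney, 4.54% in muscle, 3.51% in liver and 2.98% in BAT, beside 87.0% in cortex. Both pairs therefore changed hands between cortex and every other tissue. In the Snap25 pair the non-neuronal form was itself low in cortex, while Stx4a in cortex (5.65 FPKM) lay within the range of the other tissues.

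The share of the VAMP pair depended on the strand of the Vamp2 locus. With the locus of the highest FPKM, on the opposite strand, Vamp2 made up 84.2% of the summed FPKM of Vamp2 and Vamp3 in cortex. Its share was 55.8% in liver, 41.4% in SCAT, 40.1% in kidney, 29.4% in VAT, 18.7% in muscle and 14.9% in BAT. Outside cortex the order of these shares ran opposite to the level of Vamp3 at its ends, with BAT and muscle lowest and liver highest, whereas Vamp2 itself varied little. With the locus on the annotated strand, the Vamp2 share outside cortex was lower by over 1.5 times in all 6 tissues. It was then 65.0% in cortex, 29.8% in liver, 20.2% in kidney, 17.0% in SCAT, 12.2% in VAT, 11.0% in muscle and 7.74% in BAT. On that strand Vamp2 was the larger form in cortex and in no other tissue, as in the other pairs.

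**Figure D2:**
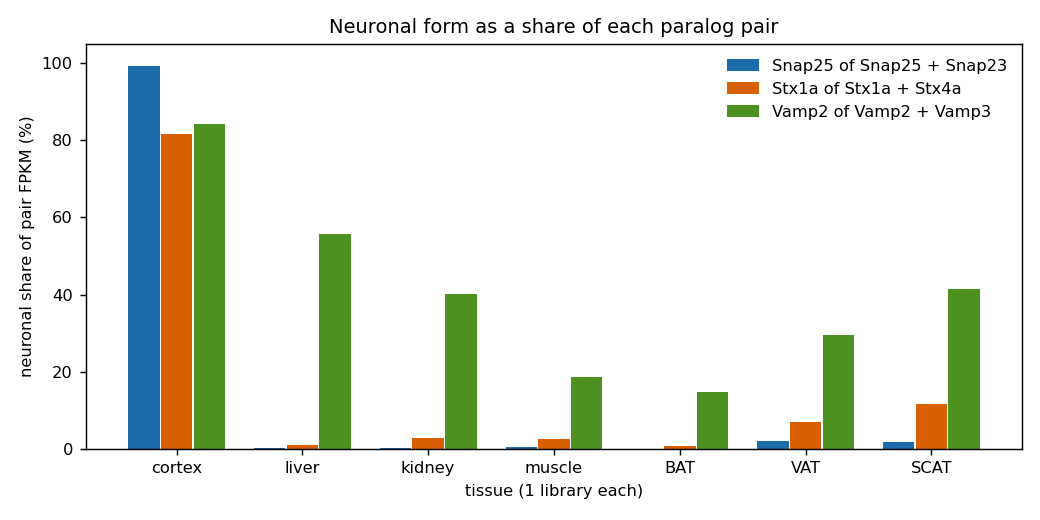
FPKM of the neuronal form as a percentage of the summed FPKM of each paralog pair, for each tissue (1 library each). Snap25 and Stx1a fall from 99.3% and 81.8% in cortex to at most 1.92% and 11.5% elsewhere. Vamp2, from its opposite-strand locus, lies between 14.9% and 55.8% outside cortex. Other loci give up to 20.3% for Stx1a (all loci summed, SCAT) and between 7.74% and 29.8% for Vamp2 (annotated strand) outside cortex.

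Other loci of these genes bear on the levels. The 9 genes have 15 loci in the table: 6 genes have 1 locus, and Vamp2, Stx1a and Syt1 have several. For 8 of the 9 the locus used, that with the highest FPKM, lies on the annotated strand, and Vamp2 is the exception. The further Stx1a loci lie on the other strand, with 11.1 and 1.56 FPKM in cortex and at most 0.504 FPKM in any other tissue. For these 3 genes the loci on both strands had their highest level in cortex.

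The members belong to a larger set of 76 genes of vesicle fusion, grouped by role, of which 75 reached 1 FPKM in any tissue. Of 37 such genes with a role at the synapse, 24 were enriched in cortex and 3 in another tissue, and 29 had their highest level in cortex, beside 8.32% of all names enriched in cortex and 20.7% highest there. Of 34 SNAREs and general partners not specific to the synapse, 2 were enriched in cortex and 1 elsewhere. The cortex share was close to the 8.32% of all names. The median log2 ratio of cortex over the highest other tissue was 3.93 in the synaptic genes and -0.98 in the others, beside -1.43 over all names.

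**Figure D3:**
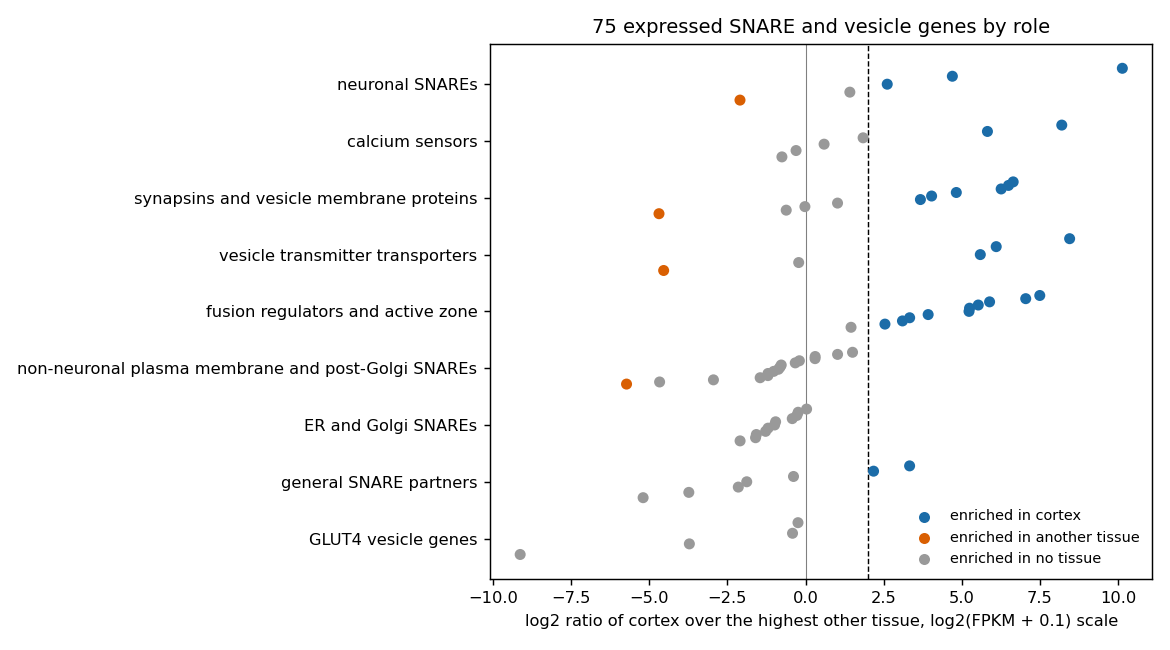
Log2 ratio of cortex over the highest other tissue for 75 genes, 1 point a gene, by role; the dashed line marks the 4-fold rule. Fusion regulators and active zone genes lie to the right of the line for 10 of 11 genes, and SNAREs of the endoplasmic reticulum and Golgi for 0 of 11.

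Regulators of fusion and scaffolds of the active zone were the role with the highest share: 10 of 11 were enriched in cortex. Rims1, a scaffold that tethers vesicles, had 23.6 FPKM in cortex and at most 0.0312 FPKM elsewhere, a log2 ratio of 7.50. Cplx1, a complexin that clamps the SNARE complex, had 16.8 FPKM in cortex and at most 0.0273 FPKM elsewhere. Unc13a, a priming factor, was the exception, with 20.6 FPKM in cortex and 7.44 FPKM in liver, a log2 ratio of 1.46. Of the vesicle transmitter transporters, the glutamate transporters Slc17a7 (100.2 FPKM in cortex) and Slc17a6 (11.7 FPKM) and the GABA transporter Slc32a1 (5.38 FPKM) were enriched in cortex, with log2 ratios of 8.45, 6.10 and 5.59. The related transporter gene Slc17a8 was enriched in liver instead, with 16.9 FPKM there and 0.628 FPKM in cortex, from a locus antisense to the annotated gene. The loci used for Slc17a6 and Slc32a1 were antisense as well.

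Among calcium sensors, Syt1 and Syt5 were the 2 of 6 enriched in cortex. Syt5 had 47.3 FPKM in cortex and at most 0.0607 FPKM elsewhere, a log2 ratio of 8.20. Syt2, the synaptotagmin of motor nerve terminals, was highest in muscle with 1.73 FPKM, against 0.983 FPKM in cortex. Of the vesicle membrane proteins, Synpr, Syngr3 and the SV2 genes Sv2a, Sv2b and Sv2c joined Syp in meeting the rule, Synpr, Syngr3 and Sv2c from antisense loci. With loci on the annotated strand alone, 24 rather than 26 genes of the whole list were enriched in cortex. Among the vesicle membrane proteins alone, Sv2b had the largest log2 ratio, 6.65, followed by Synpr with 6.50 and Syngr3 with 6.26. Outside cortex Syngr3 had at most 0.0998 FPKM, under the added 0.1 FPKM, so this order depends on that constant. Syngr1 did not meet the rule, with 15.0 FPKM in cortex, 23.0 FPKM in muscle and 11.2 FPKM in BAT.

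Of the 5 neuronal SNARE genes, the 3 members were enriched in cortex. Vamp1, a vesicle SNARE of motor neurons, was not, with 8.44 FPKM in cortex and 3.09 FPKM in muscle, a log2 ratio of 1.42.

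SNAREs not specific to the synapse were spread over the tissues. Of 16 SNAREs of the plasma membrane and post-Golgi compartments, 0 were enriched in cortex and Vamp5 was enriched in muscle, beside 3.63% of the names. Vamp5, which is named for its expression in muscle cells (myobrevin), had 32.1 FPKM in muscle and at most 2.98 FPKM elsewhere, a log2 ratio of 3.38. Vamp8, a SNARE of late endosomes and of secretion in epithelial cells, was highest in kidney (57.7 FPKM) and liver (52.3 FPKM) and lowest in cortex (2.17 FPKM). Snap47 had its highest level in cortex, with 29.1 FPKM, against 10.2 FPKM in liver. All 11 SNAREs of the endoplasmic reticulum and Golgi were enriched in no tissue, where 23% of all names were enriched in any of the 7. Of the general partners, Nsf, the ATPase that takes SNARE complexes apart, was enriched in cortex (118 FPKM, log2 ratio 3.33), and so was its adaptor Napg (38.3 FPKM, log2 ratio 2.18). The adaptor Napa was not, with 66.2 FPKM in muscle and 50.6 FPKM in cortex. Stxbp3, which encodes the Munc18 protein that binds syntaxin-4, was highest in muscle (21.9 FPKM) and lowest in cortex (4.85 FPKM).

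The synapsin family as a whole did not share the pattern of Syp or Syt1. Syn2 (chromosome 6, 115134902 to 115282006, plus strand) had 50.8 FPKM in cortex and 51.5 FPKM in VAT, with 24.3 FPKM in muscle, 20.05 FPKM in BAT, 18.9 FPKM in SCAT, 0.729 FPKM in kidney and 0.0155 FPKM in liver. Syn3 (chromosome 10, 86055125 to 86498896, minus strand) was enriched in kidney with 277 FPKM, against 10.6 FPKM in cortex and 7.42 FPKM in liver. Each synapsin gene holds a gene of the TIMP family, inhibitors of matrix metalloproteinases, inside it on the other strand: Timp1 in Syn1, Timp4 in Syn2 and Timp3 in Syn3. Timp4 had 29.3 FPKM in VAT, 15.3 FPKM in muscle, 10.4 FPKM in BAT, 10.3 FPKM in SCAT, 7.58 FPKM in cortex and 0.349 FPKM in kidney, and was listed at 0 in liver. Timp3 had 51.2 FPKM in kidney on its annotated strand and between 1.45 and 6.00 FPKM elsewhere. VAT was thus the highest tissue of both Syn2 and Timp4, and kidney of both Syn3 and Timp3, and liver was the lowest tissue of all 4. Timp1 had at most 3.50 FPKM on its annotated strand, in BAT, the lowest tissue of Syn1. On the other strand, that of Syn1, Timp1 had at most 8.58 FPKM, in muscle, the highest tissue of Syn1 outside cortex as deposited. There it had 0.265 FPKM in cortex, the highest tissue of Syn1, and 6.16 FPKM in BAT, the lowest. The part of the nested genes in the synapsin values was not tested.

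**Figure D4:**
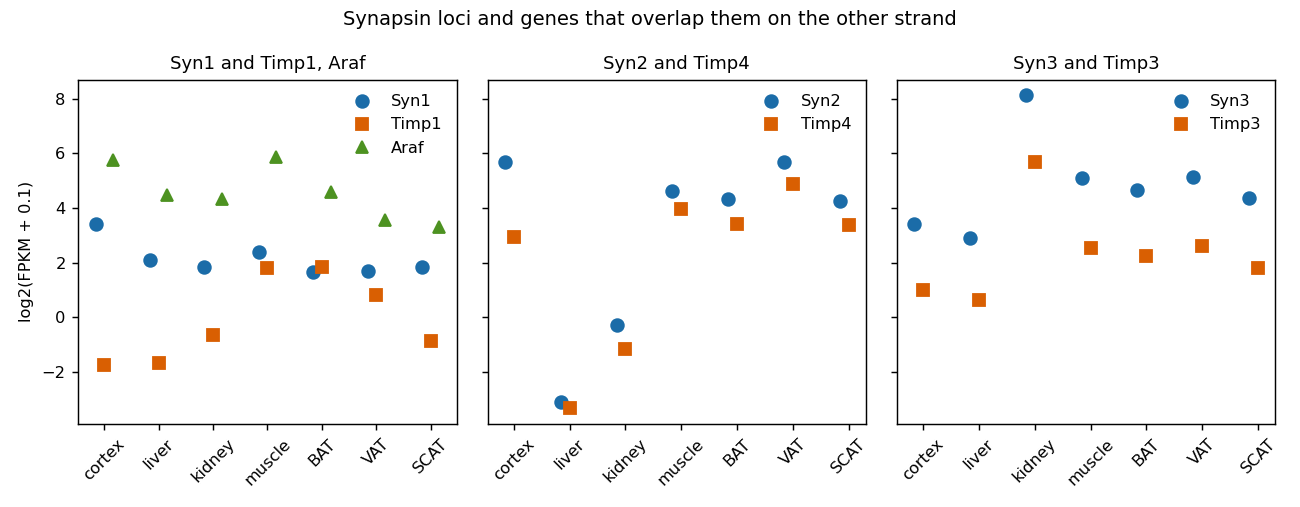
Level, as log2(FPKM + 0.1), of each synapsin locus and of the genes that overlap it on the other strand, in 7 tissues (1 library each). Syn2 and Timp4 are both highest in VAT and lowest in liver, and Syn3 and Timp3 are both highest in kidney.

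The genes with the tissue pattern most like each member were found by the root mean square difference of log2(FPKM + 0.1) over the 7 tissues, after each profile was centred on its own mean, among 16652 names. This is a description of 7 libraries, and many cortex genes share the same shape. For Snap25 the closest were the AMPA receptor subunit gene Gria2 (difference 0.28), the neuronal calcium sensor gene Vsnl1 (0.28) and the myelin gene Mobp (0.34). Outside cortex these genes had at most 0.108 FPKM, so the added 0.1 FPKM and the cortex level set the likeness. This list mixes genes of neurons and of oligodendrocytes. For Stx1a the closest were Kcnmb4 (0.28), a potassium channel subunit gene, its antisense transcript Kcnmb4os1 (0.38) and Diras2 (0.43). Kcnmb4 and Kcnmb4os1 were listed at 0 in liver, kidney and BAT, where the constant sets their values. For Syt1 the closest were Caln1 (0.47), Ntm (0.49) and the astrocyte gene Gfap (0.66). In liver Caln1 had 0.820 FPKM, Ntm 1.65 FPKM and Gfap 0.494 FPKM. For Syp they were Chl1 (0.37), Sdcbp2 (0.39) and Sez6 (0.39), and for Vamp2 the microRNA locus Gm24368 (0.14), Ralgps1 (0.16) and Kcng1 (0.16). Of these, Gm24368 and Kcng1 reached only 1.08 and 1.23 FPKM in cortex and were near or at 0 elsewhere, so that the added 0.1 FPKM sets their ratios and the likeness to Vamp2 is in shape on that scale only.

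The non-neuronal paralogs had other neighbours. For Snap23 the closest was Scamp2 (0.18), a carrier membrane protein of the secretory pathway, with 12.7 FPKM in muscle, 12.0 FPKM in kidney and 1.44 FPKM in cortex, followed by the pseudogene Gm8666 (0.29) and Mbd2 (0.30). For Vamp3 they were Mthfd2l (0.19), Afap1l1 (0.25) and Hist2h2be (0.28). For Stx4a they were Cwc22 (0.15), Ccdc59 (0.17) and Rfc1 (0.17). For Syn1 they were the antisense transcript Gm11646 (0.11), the microRNA gene Mir28b (0.15) and the pseudogene 5830417I10Rik (0.15), so that none of its 3 closest names is a protein-coding gene.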

How the data were processed

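The authors removed adapters with flexbar and ribosomal RNA reads with Bowtie2 2.2.9, aligned the rest to GRCm38 with STAR 2.6.0c, merged assembled transcripts and ran cuffdiff of the Cufflinks suite 2.2.1 (paper's methods and submitters' processing notes). The deposited FPKM values, 94339 loci in 21 tissue comparisons, were the same for a tissue in all its 6 comparisons. Scaling between libraries is not given in the sources used here. The table's fold changes, test scores, p-values and significance calls were not used.

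Loci with status FAIL (151) were left out and zeros with status LOWDATA (83 loci) set to missing; neither touched a member. For a name with several loci the highest FPKM was used. Coordinates count from 1. Strand was read from the order of loci and matches GENCODE M21 for 75.3% of 62045 locus-name pairs. A locus on the opposite strand may mix sense and antisense fragments, which was not tested. Differences are log2(FPKM + 0.1), which understates changes of low genes. With 1 library per tissue no test was possible. Rule and nearest-profile search were tested on simulated data. Python 3.11.15, pandas 2.3.3, NumPy 2.4.6 and matplotlib 3.10.9 were used.

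Members, the 76-gene list and markers were chosen with earlier results of these data known. The rule for named genes took the members, the 3 closest profiles of each, the genes with the highest and lowest ratio of each role, those enriched in a tissue, and markers beside a result. The other listed genes that are named, the TIMP genes, Araf, Camta1 and Prickle3 were chosen after their values were seen. Some genes of the lists are counted but not reported by name here.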

Additional observations from a re-analysis of the deposited data

How the results depend on the processing

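No paired analysis was possible because there is a single library per tissue. The 12 alternatives were pseudocounts of 1 and 0.01, no minimum FPKM or one of 5, a 2-fold rule, median ratio and upper quartile scaling, summed loci, annotated-strand loci, failed loci kept, LOWDATA zeros kept, and leaving out the VAT and SCAT libraries together. The count of 5 members enriched in cortex was 5 in 11 of them and 6 with the 2-fold rule, which Syn1 met. The share of all names enriched in cortex, 8.32% as reported, ranged from 3.85% (no minimum FPKM) to 12% (2-fold rule). The count of 26 genes of the wider list ranged from 24 to 32. All 81 log2 ratios of single members kept their direction and their side of the 4-fold rule. They ranged from 7.63 to 11.06 for Snap25, from 3.81 (pseudocount 1) to 6.605 (without VAT and SCAT) for Stx1a, from 2.25 to 2.83 for Vamp2 and from 0.91 to 1.38 for Syn1. Summing all loci moved 6 of 21 paralog shares by over 1.5 times, all of Stx1a outside cortex, where the shares became 2.98% (BAT) to 20.3% (SCAT). Loci on the annotated strand moved all 6 Vamp2 shares outside cortex by over 1.5 times, to between 7.74% (BAT) and 29.8% (liver). Median ratio scaling shifted the libraries by between -0.39 (SCAT) and 0.25 (muscle) on the log2 scale, and upper quartile scaling by between -0.49 (SCAT) and 0.38 (muscle). The order of muscle and VAT for Vamp3, 0.79 apart as deposited, and that of BAT and SCAT for Stx4a, 0.56 apart, turned under the latter. Depth is unknown, so it cannot be said how many fragments stand behind levels under 1 FPKM.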
